A study of Homo sapiens with 4 samples.

Results

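The genes described are 55 genes of protein import, folding, N-glycosylation and quality control in the endoplasmic reticulum (ER), followed in MM.1S, an established human multiple myeloma cell line. Members were chosen by their function, with earlier results of these data known, and each was represented by probe sets assigned to a single gene symbol. Of the 55, 52 had such a probe set and all 52 counted as measured, out of 12446 measured genes among 19775 with a probe set. SEC61G, PDIA5 and SYVN1 were not analysed here. The cells were exposed to the vehicle DMSO (the control) or to 250 nM MLN4924 for 8, 16 or 24 h, with 1 array of total RNA per group. MLN4924 inhibits the NEDD8-activating enzyme, which cullin-RING ubiquitin ligases need for activity. No culture time was given for the control, no array was replicated, and the line stands for 1 myeloma.

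Plasma cells and myeloma cells secrete antibody, and most of that protein enters the ER while it is being made. The signal recognition particle (SRP) brings ribosomes to the Sec61 channel, signal peptidase removes the signal sequence, and oligosaccharyltransferase attaches N-glycans. BiP and GRP94, the lectin chaperones calnexin and calreticulin, and protein disulfide isomerases then fold the chain. ER-associated degradation (ERAD) returns chains that fail to fold to the cytosol, where ubiquitin ligases and the proteasome destroy them. The sensors IRE1, PERK and ATF6 raise the transcription of many of these genes when unfolded protein builds up, a programme called the unfolded protein response. IRE1 acts through splicing of XBP1 mRNA, and XBP1 and cleaved ATF6 bind ER stress response elements in promoters.

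The promoters of the chaperone genes are shown because these genes had the lowest median of the 8 functional steps at 8 and 16 h and are textbook targets of that programme. The 250 bases upstream of the start of HSPA5 (BiP), HSP90B1 (GRP94) and HYOU1 (an ER HSP70 relative) follow, from RefSeq on build GRCh38.p14, 5′ to 3′ on the strand of the gene. Capitals mark the fixed letters of an ER stress response element (ERSE) or of its second form (ERSE-II), in either orientation. Only exact matches to the letters given below are marked, so any element that departs from them stays in lower case.
HSPA5, chr9:125241344-125241593, minus strand: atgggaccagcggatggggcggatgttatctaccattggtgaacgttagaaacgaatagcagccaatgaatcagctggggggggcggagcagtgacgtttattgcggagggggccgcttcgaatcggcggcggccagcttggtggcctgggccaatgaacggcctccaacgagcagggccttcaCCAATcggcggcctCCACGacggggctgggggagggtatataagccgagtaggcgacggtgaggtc
HSP90B1, chr12:103930160-103930409, plus strand: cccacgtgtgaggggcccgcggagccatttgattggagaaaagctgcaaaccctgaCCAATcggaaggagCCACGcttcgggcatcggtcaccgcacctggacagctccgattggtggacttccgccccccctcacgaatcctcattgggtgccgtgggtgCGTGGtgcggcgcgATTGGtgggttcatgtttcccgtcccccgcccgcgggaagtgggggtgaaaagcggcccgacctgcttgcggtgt
HYOU1, chr11:119057206-119057455, minus strand: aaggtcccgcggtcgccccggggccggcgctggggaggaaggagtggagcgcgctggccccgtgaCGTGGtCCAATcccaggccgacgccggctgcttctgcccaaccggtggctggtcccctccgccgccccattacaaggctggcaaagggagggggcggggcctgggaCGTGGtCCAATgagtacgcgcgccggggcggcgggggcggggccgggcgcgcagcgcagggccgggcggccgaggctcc

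The letters searched on both strands were CCAAT and CCACG with 9 bases of any kind between them for ERSE, ATTGG and CCACG with 1 base between them for ERSE-II, and TGACGTGG for the unfolded protein response element (UPRE). UPRE can overlap ERSE-II, as it does in HYOU1. Windows ran from 250 bases before a start to 50 after it, 49 of the 55 members had at least 1, and there were 60 windows in all. An ERSE stood in the windows of 6 members (12.2% of 49), against 0.0916% of all 27305 genes with a window. ERSE-II was found in 2 members (4.08%, against 0.0696%) and UPRE in 6 (12.2%, against 0.927%). The members were chosen by function and include textbook targets of this programme, and all genes include the members. These shares are therefore a description and not a test. HSP90B1 held 2 ERSEs and HYOU1 2 ERSE-IIs. The other members with an ERSE or ERSE-II are given next, with capitals as before, since they did not all take the same direction on the arrays.
CALR ERSE, chr19:12938384-12938402, plus strand: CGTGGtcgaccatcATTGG
PDIA6 ERSE, chr2:10812853-10812871, minus strand: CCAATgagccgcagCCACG
SDF2L1 ERSE-II, chr22:21642114-21642124, plus strand: CGTGGaCCAAT
CANX ERSE, chr5:179698778-179698796, plus strand: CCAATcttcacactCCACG
ERO1B ERSE, chr1:236282183-236282201, minus strand: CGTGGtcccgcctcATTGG

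UPRE letters stood in the windows of DNAJC10, HYOU1, SEC62, SRP19, SSR3 and SSR4. A match is only a run of letters in this window, and binding was not measured.

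The deposited values were intensities on a linear scale, with array medians between 92.2 and 95.4. All differences below are log2 of the treated array over the control array. With 1 array per group there was no test, and each difference was that of 1 culture from another. The SD between probe sets of the same gene, pooled over 5719 genes, on the log2 scale came to 0.160, 0.189 and 0.180 at 8, 16 and 24 h. For the 33 members with at least 2 measured probe sets it was 0.115, 0.154 and 0.126. A gene was counted as lower or higher from a log2 difference of 0.322 in size, called the counting threshold below. The ratio of 3′ to 5′ probe sets lay between 1.18 and 1.22 for GAPDH and between 1.95 and 2.21 for ACTB. Each of 9 plasma cell markers was measured, and their medians were -0.16, 0.0032 and 0.026 at 8, 16 and 24 h. Of the 9, 8, 4 and 3 were below the control at those times. They ranged at 24 h between -0.46 for MZB1, an ER protein of plasma cells that passed the threshold at each time, and 0.29 for CD38. Of 12 markers of T cells, myeloid cells and stroma, 3 passed the filter (CD3E, CD3G and COL1A1), and CD2, LYZ and S100A8 were at the floor on every array.

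The ER genes were, as a set, slightly lower on the treated arrays, with the lowest values at 16 h. Their median differences were -0.11, -0.15 and -0.10 at 8, 16 and 24 h, beside medians of 0.0071, 0.026 and 0.016 over all measured genes. The members were mostly bright genes, with a median intensity of 3960 in control cells against 389 over all measured genes. On the control array 50 of the 52 lay above the 75th percentile of measured genes. The background was not matched for intensity, so a dependence on brightness was not tested. With quantile normalization the member medians were -0.11, -0.12 and -0.06 at 8, 16 and 24 h. At 8 h, 41 of 52 members were below the control (78.8%, against a background of 48.3%). At 16 h, 38 were below it (73.1%, against 45.7%), and at 24 h 33 were (63.5%, against 47.4%). In bulk RNA, fewer cells of a type and less RNA per cell cannot be told apart. No member reached 2-fold at any time, a size that 0.249%, 0.675% and 0.707% of all measured genes reached in either direction at 8, 16 and 24 h.

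**Figure D1:**
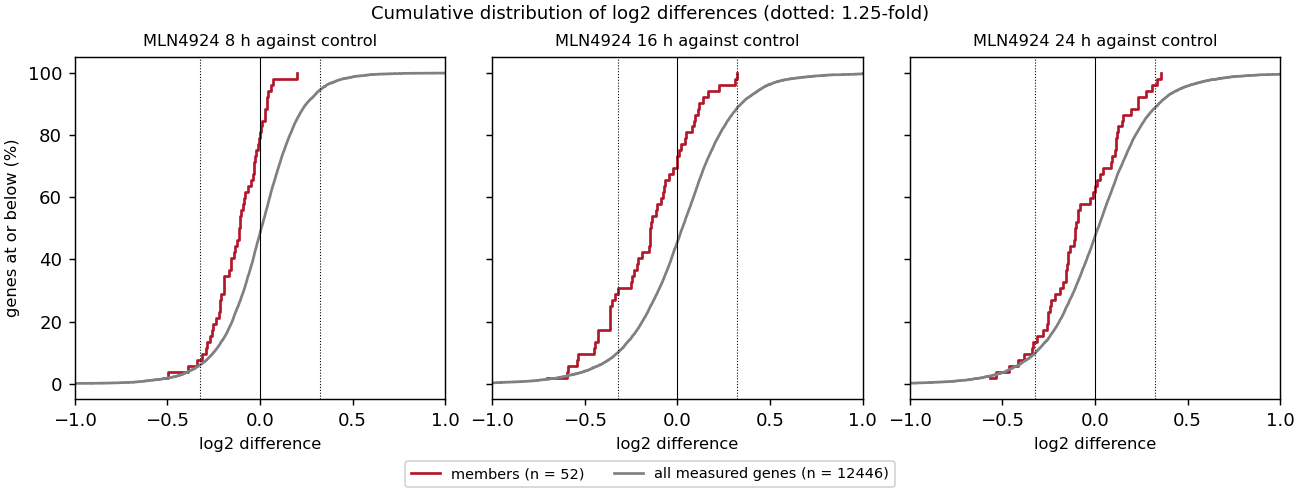
Cumulative share of genes (y axis, %) at or below each log2 difference from control (x axis) for the 52 measured members and for all 12446 measured genes, with 1 panel per time and dotted lines at the counting threshold of 0.322 in either direction. The member curve lies left of the curve of all genes over most of its range at each time, and no member lies beyond 2-fold.

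By the counting threshold, 4 members were lower at 8 h (7.69%, against a background of 6.15%), so their share was near that of all genes. At 16 h 16 were lower (30.8%, against 10.1%), and at 24 h 7 were (13.5%, against 9.94%). The 8 h count was 8 when a gene took the median of its probe sets and 7 with array medians set equal, and the 24 h count was 4 with that median and 4 without probe sets named _s_at or _x_at. None was higher at 8 h or at 16 h, where 5.67% and 11.4% of all measured genes were. At 24 h 2 members were higher (3.85%, against 11.4%), namely SEC62 and DERL1. With array medians set equal, the 24 h split was 9 lower and 0 higher, and with quantile normalization the 16 h split was 14 lower and 2 higher.

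The control array was the highest of the 4 for 32 of 52 members (61.5%), against 25.3% of all measured genes. The 16 h array was the lowest for 23 of them (44.2%, against 18.5%). From 16 h to 24 h, 37 of 52 members had the larger value at 24 h (71.2%, against 45.5%), with a median step of 0.047 beside -0.015 over all measured genes. A group of 62 measured genes (0.498%) was at least 0.5 (log2) lower at 16 h than at both neighbouring times. Of the members 0 were among them, a number that cannot be set apart from so small a share. Comparisons with the control share the control array, so its own deviation enters every difference.

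**Figure D2:**
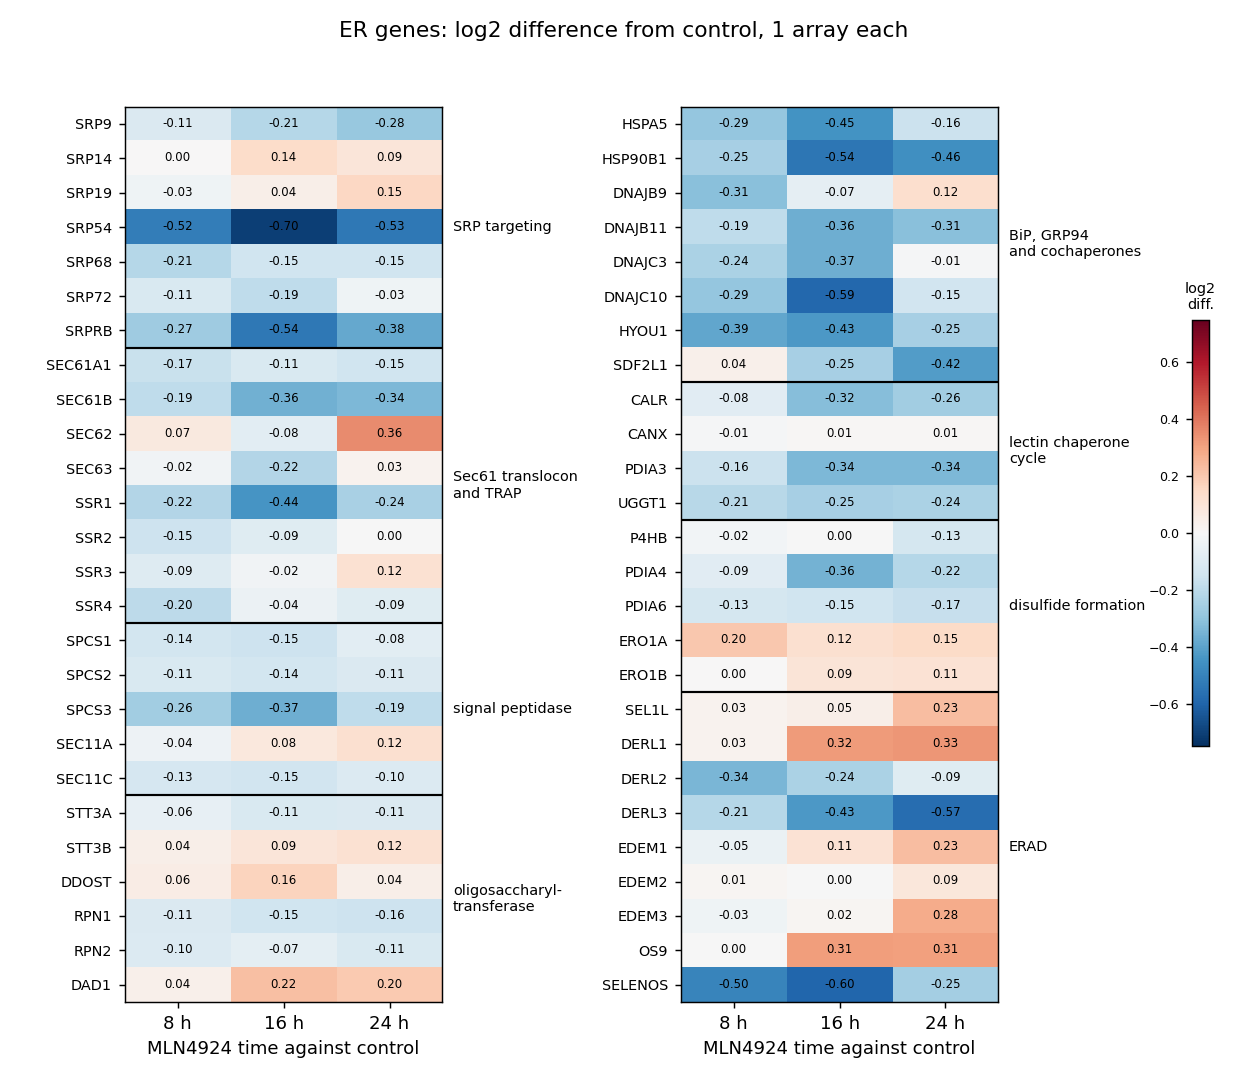
Log2 difference from control (colour and printed value) of each of the 52 measured members, in rows grouped by functional step, at 8, 16 and 24 h (columns), 1 array each. The block of BiP, GRP94 and cochaperones is blue at 16 h in all 8 rows, a time when 45.7% of all measured genes were below the control. Of 9 ERAD rows, 5 are above 0 at 16 h and 6 at 24 h. At 24 h 6548 of 12446 measured genes were above 0, a share from which 6 of 9 cannot be set apart.

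The medians of the 8 functional steps are given next. BiP, GRP94 and their cochaperones had medians of -0.27, -0.40 and -0.21 at 8, 16 and 24 h over 8 genes, the lowest of the 8 steps at 8 and 16 h. The lectin chaperone cycle had -0.12, -0.29 and -0.25 over 4 genes, the lowest of the 8 at 24 h. When each gene took the median of its probe sets, this order was turned, at -0.26 for the chaperones and -0.25 for the lectin cycle. SRP targeting stood at -0.11, -0.19 and -0.15 over 7 genes and signal peptidase at -0.13, -0.15 and -0.10 over 5. The Sec61 channel and its partners stood at -0.16, -0.10 and -0.05 over 8. Oligosaccharyltransferase was near the control at -0.01, 0.0091 and -0.03 over 6 genes. Disulfide formation stood at -0.02, -0.0012 and -0.13 over 5. ERAD had -0.03, 0.02 and 0.23 over 9 genes, the highest median of the 8 at 24 h and the only one above 0 as deposited. Quantile normalization put the Sec61 channel (0.02) and oligosaccharyltransferase (0.0059) above 0 as well. Without probe sets named _s_at or _x_at, which left 5 ERAD genes, the ERAD median at 24 h was 0.0853 and that of oligosaccharyltransferase was 0.0050. No test between steps was run, since their genes are not replicates of a condition.

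**Figure D3:**
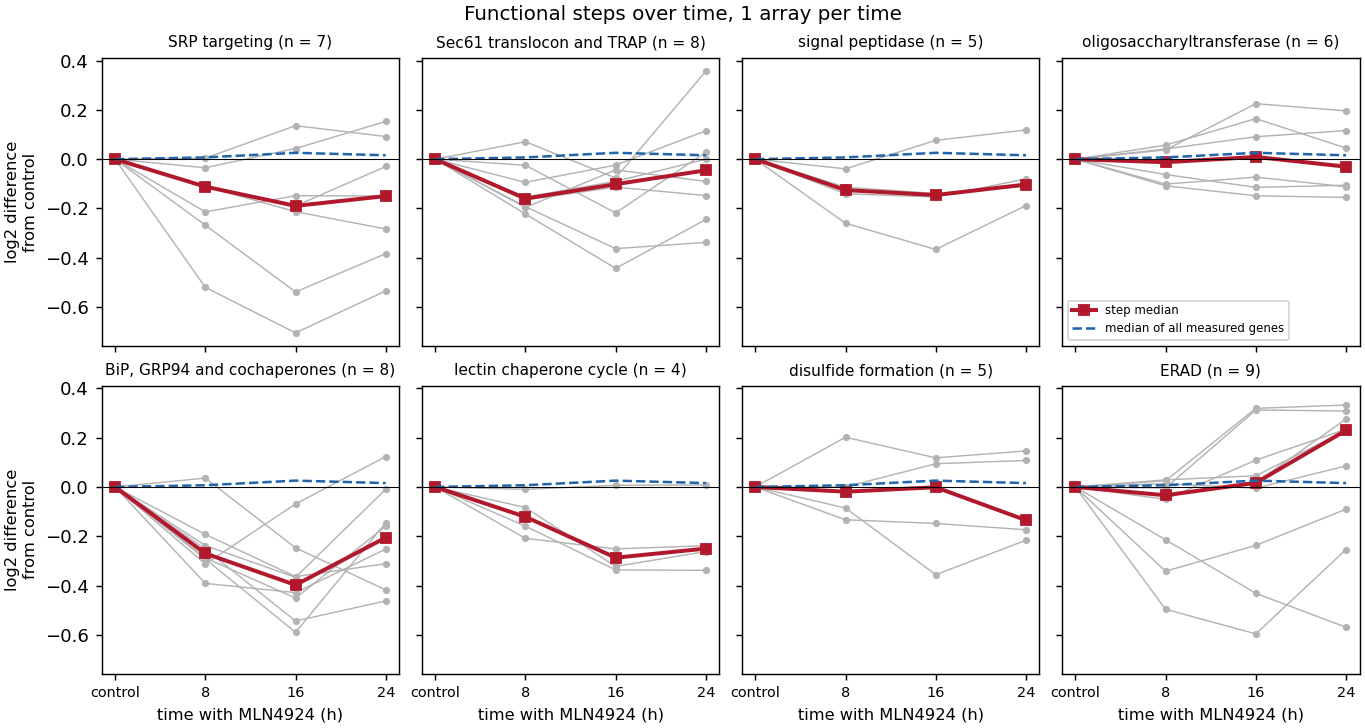
Log2 difference from control (y axis) against time with MLN4924 (x axis, control set at 0), with 1 panel per functional step, grey lines for single genes, red for the median of the step and dashed blue for the median of all 12446 measured genes. The chaperone median reaches -0.40 at 16 h and stands at -0.21 at 24 h, and the ERAD median goes up to 0.23 at 24 h while 3 of its genes stay below 0.

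HSPA5 encodes BiP, the HSP70 of the ER and a brake on the stress sensors. It had an intensity of 6261 in control cells and 5131, 4582 and 5610 after 8, 16 and 24 h. The 16 h array was thus the lowest and the 24 h array the nearest to the control, with differences of -0.29, -0.45 and -0.16. Its second measured probe set went the same way at all times (-0.38, -0.81 and -0.40). HSP90B1, the ER form of HSP90, had 6089 in control cells and 5115, 4178 and 4421 after 8, 16 and 24 h. All treated arrays were below the control, and the 24 h value stayed close to that at 16 h (-0.54 and -0.46). Its probe set is named _x_at, a mark for probes that may bind other sequences. Its other measured probe set gave 0.47 at 8 h and -0.02 at 16 h, so that the median of both was -0.28 at 16 h.

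Of the cochaperones, 4 passed the counting threshold at 16 h. DNAJC10, a disulfide reductase that works with BiP, had 1465 in control cells and 1197, 974 and 1325 after 8, 16 and 24 h. It was lowest at 16 h (-0.59), and each of its 5 measured probe sets was below the control there. HYOU1, which exchanges the nucleotide of BiP, had 3957 in control cells and 3018, 2941 and 3324 after 8, 16 and 24 h. All treated arrays were lower, by -0.39, -0.43 and -0.25. DNAJB11, a J-protein that binds unfolded chains, stood at -0.19, -0.36 and -0.31. DNAJC3, a J-protein also known as an inhibitor of PERK, stood at -0.24, -0.37 and -0.01. Its other 3 probe sets lay between -0.21 and -0.10 at 24 h.

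DNAJB9 and SDF2L1 had other time courses. DNAJB9, a J-protein that holds IRE1 inactive through BiP, had 3769 in control cells and 3036, 3593 and 4106 after 8, 16 and 24 h. It was lowest at 8 h (-0.31) and above the control at 24 h (0.12), and its 3 measured probe sets lay between -0.37 and -0.31 at 8 h and between 0.12 and 0.35 at 24 h. SDF2L1, which works with J-proteins of the ER, went the other way, with 1122 in control cells and 1150, 945 and 840 after 8, 16 and 24 h. Its lowest value was the last, at -0.42. In this step 6 of 8 genes were lower by the threshold at 16 h (against 10.1% of all measured genes). A higher value at 24 h than at 16 h was found in 7 of 8 (against 45.5%). The first count depended on the probe set used. At 16 h the other probe sets of DNAJC3 (-0.30 each) and HSP90B1 (-0.02) were under the threshold, as was 1 of DNAJC10 (-0.05). The second probe set of HSPA5 (-0.81) and the remaining ones of DNAJC10 were past it.

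**Figure D4:**
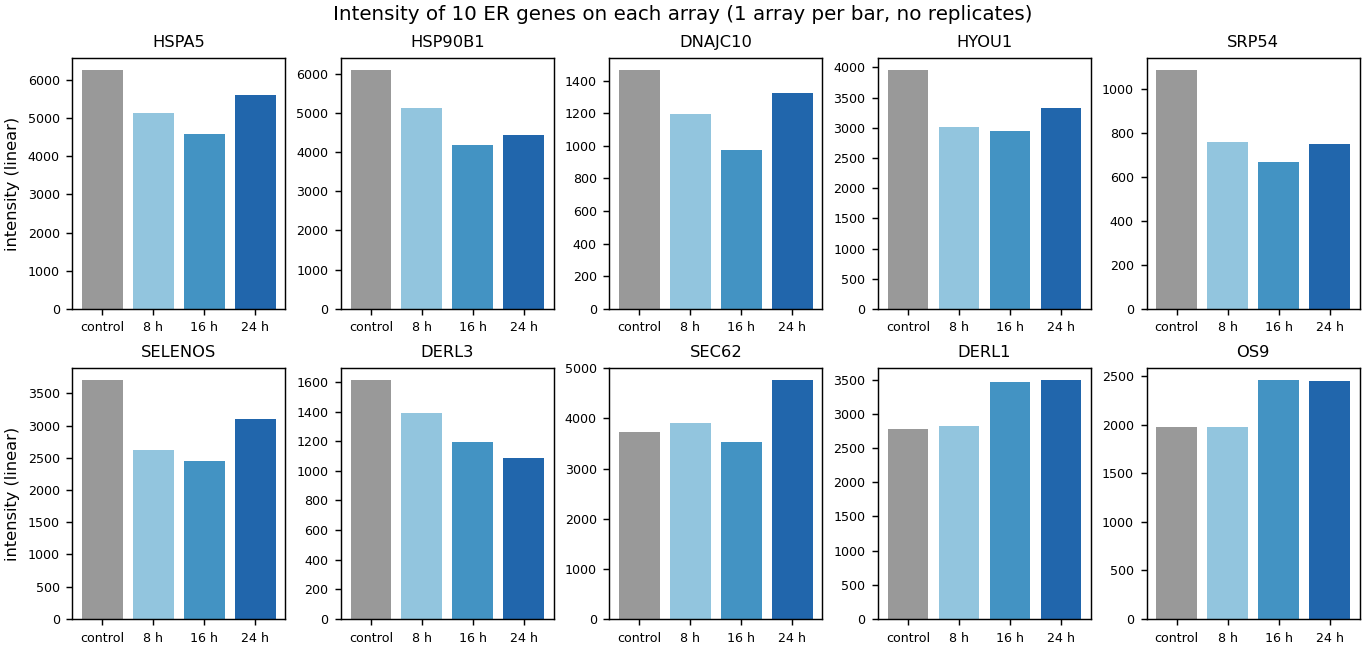
Deposited intensity on a linear scale (y axis from 0) of 10 ER genes on the control, 8 h, 16 h and 24 h arrays, 1 array per bar and no error bars. HSPA5, DNAJC10, HYOU1, SRP54 and SELENOS are lowest at 16 h, DERL3 is lowest at 24 h, and SEC62, DERL1 and OS9 stand above the control at 24 h.

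In the lectin cycle, calreticulin and calnexin differed. CALR, the soluble lectin chaperone, had 6468 in control cells and 6106, 5174 and 5395 after 8, 16 and 24 h. It was lowest at 16 h (-0.322, just at the counting threshold), with all 3 probe sets below the control. CANX, its membrane-bound relative, had 9870 in control cells and 9805, 9917 and 9927 after 8, 16 and 24 h. It stayed level on this probe set (-0.0096, 0.0069 and 0.0082), while its other measured probe sets reached down to -0.34 at 16 h.

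PDIA3, the oxidoreductase that both lectins recruit, had 2014 in control cells and 1804, 1595 and 1594 after 8, 16 and 24 h. Both late arrays were equally low (-0.34 each), and the other 2 probe sets were lower still at 16 h (down to -0.86). UGGT1, which tags misfolded glycoproteins for another round, had 1062 in control cells and 919, 892 and 900 after 8, 16 and 24 h. It was below the control at each time (-0.21, -0.25 and -0.24), as were its other 4 probe sets, the lowest of which stood at -0.49 at 24 h.

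Among the disulfide enzymes, PDIA4 was the 1 gene of 5 past the counting threshold, at 16 h. With 10.1% of all measured genes lower there, 1 of 5 cannot be set apart from that share. PDIA4 had 6561 in control cells and 6184, 5127 and 5648 after 8, 16 and 24 h, lowest at 16 h (-0.36; -0.41 in its second probe set). PDIA6 had 6611 in control cells and 6029, 5967 and 5862 after 8, 16 and 24 h, and its 4 probe sets were all below the control at 24 h. P4HB, the founding member of the family, stood at -0.02, -0.0012 and -0.13, and its other 2 probe sets were lower, at -0.20 and -0.12 at 16 h. ERO1A, the oxidase that recharges the isomerases, had 1177 in control cells and 1353, 1277 and 1302 after 8, 16 and 24 h. Its other 2 measured probe sets were below the control at 8 h, and the median over the 3 was -0.06 there, so its direction is uncertain. ERO1B, the second oxidase, had between 95.4 and 103 on the 4 arrays, near the array medians, with differences of at most 0.11.

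In SRP targeting, SRP54 and SRPRB passed the counting threshold at 16 and 24 h. That was 2 of 7 genes (28.6%, against 10.1% and 9.94% of all measured genes lower), too few to set apart from those shares. SRP54, the GTPase that reads the signal sequence, had the lowest difference of any member, with 1086 in control cells and 757, 666 and 750 after 8, 16 and 24 h. Every treated array was lower, by -0.52, -0.70 and -0.53, or 1.63-fold at 16 h, and the gene had 1 measured probe set. SRPRB, the membrane anchor of the SRP receptor, had 3774 in control cells and 3135, 2599 and 2894 after 8, 16 and 24 h. It was lowest at 16 h (-0.54), but its other probe sets gave -0.18 and 0.24 there, and the median was -0.18. SRP9, which with SRP14 slows elongation, had 11538 in control cells and 10688, 9954 and 9484 after 8, 16 and 24 h. Its partner SRP14 stood at 0.0043, 0.14 and 0.09, and SRP19, an assembly factor of the particle, at -0.03, 0.04 and 0.15. SRP68 and SRP72, which bind each other on the SRP RNA, stood at -0.15 and -0.19 at 16 h, with the 5 probe sets of SRP72 between -0.35 and -0.06.

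At the channel, SEC61A1, the pore subunit, had 2761 in control cells and 2462, 2553 and 2493 after 8, 16 and 24 h, a small and steady difference (-0.17, -0.11 and -0.15). SEC61B, a small subunit, had 11703 in control cells and 10242, 9102 and 9263 after 8, 16 and 24 h. It passed the counting threshold at both late times (-0.36 and -0.34). Its other measured probe set gave -0.62, -0.28 and 0.10 at 8, 16 and 24 h. SEC62, which aids import after translation and ER-phagy, had 3721 in control cells and 3908, 3530 and 4766 after 8, 16 and 24 h. It stood apart at 24 h (0.36), where its 5 measured probe sets lay between 0.12 and 0.38. SEC63, its J-domain partner, stood at -0.02, -0.22 and 0.03. Its other 3 probe sets were lower, between -0.59 and -0.45 at 16 h and between -0.22 and -0.11 at 24 h.

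The translocon-associated protein complex (TRAP) assists the import of weak signal sequences. SSR1, its alpha subunit, had 8396 in control cells and 7197, 6177 and 7087 after 8, 16 and 24 h. Its 6 measured probe sets were all below the control at each time, between -0.49 and -0.22 at 16 h. SSR2, SSR3 and SSR4 lay between -0.20 and -0.09 at 8 h and between -0.09 and 0.12 later, with the other probe sets of SSR3 down to -0.25 at 16 h.

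Of the 5 signal peptidase genes, SPCS3 passed the counting threshold, at 16 h. A count of 1 cannot be set apart from the 10.1% of all measured genes lower there. SPCS3, a subunit of the complex, had 4544 in control cells and 3795, 3525 and 3988 after 8, 16 and 24 h. It was lowest at 16 h (-0.37), with 1 of its 3 probe sets above the control there (0.15). SPCS1 had 14506 in control cells and 13163, 13043 and 13722 after 8, 16 and 24 h. SEC11C, a catalytic subunit, had 10254 in control cells and 9401, 9271 and 9549 after 8, 16 and 24 h. Its second probe set was much lower, at -0.45, -0.48 and -0.41, and the median of both at 16 h was -0.31, against -0.15 for the probe set used. SPCS2 stood between -0.14 and -0.11, and SEC11A, the other catalytic subunit, at -0.04, 0.08 and 0.12.

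Oligosaccharyltransferase genes stood on both sides of the control, and 0 of 6 reached the threshold at any time, a number too small to set apart from the shares of all measured genes (6.15% lower and 5.67% higher at 8 h, 10.1% and 11.4% at 16 h, 9.94% and 11.4% at 24 h). DAD1, a small subunit also known as a defender against cell death, had 3869 in control cells and 3971, 4522 and 4432 after 8, 16 and 24 h, the highest of the step (0.22 and 0.20 late). DDOST had 4036 in control cells and 4199, 4523 and 4164 after 8, 16 and 24 h, and its second probe set was below the control. RPN1 had 5025 in control cells and 4662, 4533 and 4512 after 8, 16 and 24 h (-0.16 at 24 h). RPN2 stood between -0.11 and -0.07. The catalytic subunits differed in sign, with STT3A, which works during translation, at -0.06, -0.11 and -0.11, and STT3B, which works after it, at 0.04, 0.09 and 0.12.

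ERAD genes split into those below and those above the control. SELENOS, a selenoprotein of the retrotranslocation complex, had 3705 in control cells and 2627, 2452 and 3108 after 8, 16 and 24 h. It was lowest at 16 h (-0.60, or 1.51-fold) and nearer the control at 24 h (-0.25). DERL3, a derlin of secretory cells, had 1612 in control cells and 1390, 1196 and 1087 after 8, 16 and 24 h. Each later array was lower (-0.21, -0.43 and -0.57), and its second probe set ran in the same order (-0.10, -0.19 and -0.38). DERL2 had 1712 in control cells and 1351, 1453 and 1608 after 8, 16 and 24 h, lowest at 8 h (-0.34). Its second probe set was lowest at 16 h instead (-0.20, -0.42 and -0.20).

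DERL1, the remaining derlin, had 2777 in control cells and 2825, 3463 and 3496 after 8, 16 and 24 h. It was above the control at the late times (0.319, just under the threshold, and 0.33), as were all 3 of its probe sets. OS9, a lectin that delivers glycoproteins to the ligase complex, had 1980 in control cells and 1975, 2459 and 2452 after 8, 16 and 24 h. Both late arrays were higher (0.31 each). SEL1L, the adaptor of the ligase HRD1, stood at 0.03, 0.05 and 0.23, and its 4 probe sets lay between 0.23 and 0.53 at 24 h. The mannosidase-like EDEM genes stood at 0.23 for EDEM1, 0.09 for EDEM2 and 0.28 for EDEM3 at 24 h. Those 6 genes, grouped after their values were seen, had medians of 0.0048, 0.08 and 0.25.

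**Figure D5:**
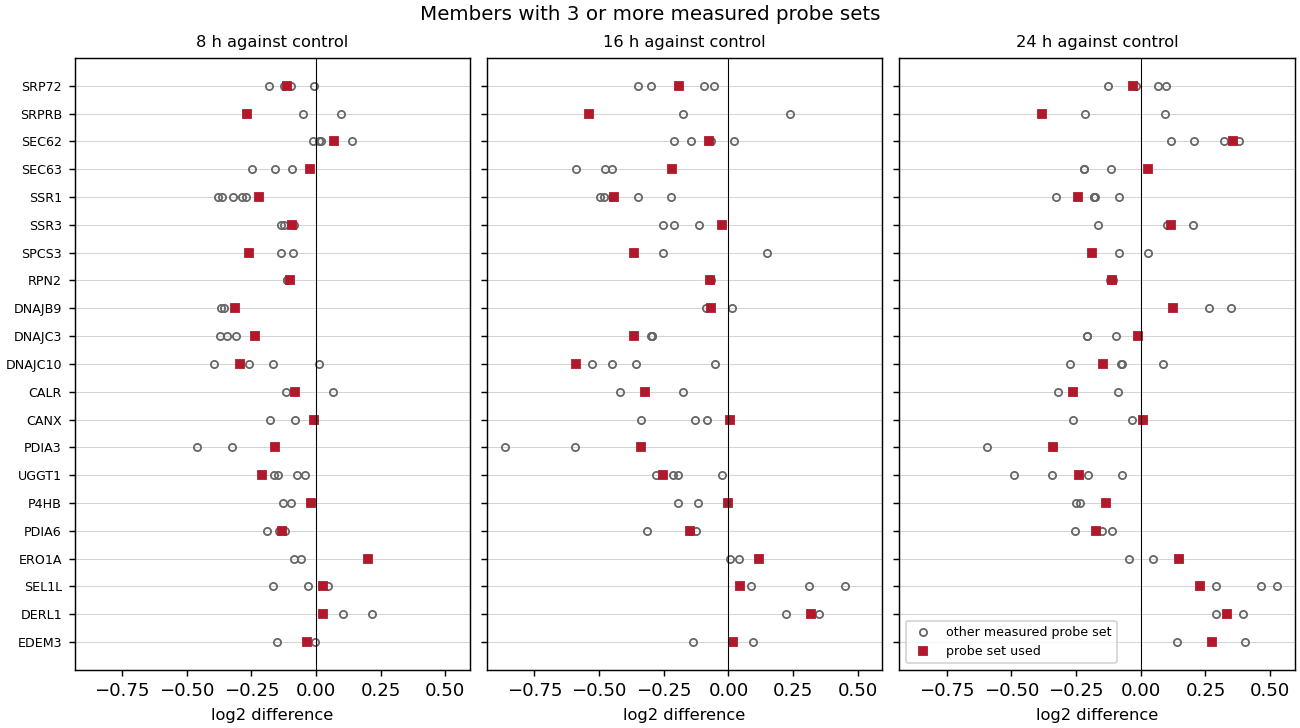
Log2 difference from control (x axis) of each measured probe set of the 21 members with 3 or more, at 8, 16 and 24 h; red squares are the probe sets used and open circles the others. The probe sets of SSR1 and DNAJC3 lie left of 0 at each time, those of DERL1 right of 0, and those of SRPRB on both sides.

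Probe sets of the same member mostly had the same sign at the time of its largest difference. Of 33 members with at least 2 measured probe sets, 28 had the same sign in all of them at that time. The time was set by the probe set used, and signs could differ at other times. Examples were HSP90B1 at 8 h (-0.25 and 0.47) and SEC61B at 24 h (-0.34 and 0.10). The same share over all measured genes was not computed. The exceptions at the time of the largest difference were SRPRB, SSR3, SPCS3, DDOST and ERO1A.

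Members with promoter elements were not uniform. Of the ERSE genes, HSPA5, HSP90B1 and CALR were lower by the threshold at 16 h, PDIA6 stood at -0.15, CANX at 0.0069 and ERO1B at 0.09. The ERSE-II genes HYOU1 and SDF2L1 stood at -0.43 and -0.25. Of the UPRE genes other than HYOU1, DNAJC10 stood at -0.59, SEC62 at -0.08, SRP19 at 0.04, SSR3 at -0.02 and SSR4 at -0.04.

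Regulators of the unfolded protein response followed, as a list outside the members. The 14 measured regulators had medians of -0.06, -0.0062 and 0.13 at 8, 16 and 24 h. By the threshold 3, 2 and 2 of them were lower at those times (21.4%, 14.3% and 14.3%, against 6.15%, 10.1% and 9.94% of all measured genes). Higher were 0, 1 and 3 (0%, 7.14% and 21.4%, against 5.67%, 11.4% and 11.4%). XBP1, whose spliced and unspliced forms were not separated here, had 9978 in control cells and 8787, 9848 and 10030 after 8, 16 and 24 h. It was lower at 8 h (-0.18) and level later (-0.02 and 0.0075). ERN1, which encodes IRE1, had 2765 in control cells and 2211, 3476 and 3551 after 8, 16 and 24 h. Its 3 probe sets lay between -0.13 and 0.33 at 16 h and between 0.07 and 0.36 at 24 h. EIF2AK3, which encodes PERK, stood at -0.08, 0.17 and 0.35, and ATF6 at 0.01, 0.10 and 0.20. All 3 sensors were thus above the control at 24 h, ATF6 by less than the threshold. So were 6548 of the 12446 measured genes, and 3 genes are too few to set apart from that share.

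Downstream of PERK, ATF4 stood at -0.03, -0.28 and -0.28 and DDIT3, which encodes CHOP, at -0.07, 0.0066 and 0.17. PPP1R15A, the phosphatase subunit GADD34, had 332 in control cells and 326, 414 and 470 after 8, 16 and 24 h (0.50 at 24 h). CREB3L2, a membrane-bound transcription factor, stood at -0.44, -0.08 and 0.08, and MBTPS2, a protease that releases ATF6, at -0.40, -0.35 and -0.13.

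Other ER genes and genes of export from the ER were also described. Of 34 measured genes of import, folding and ERAD outside the members, 2, 2 and 2 were lower by the threshold at 8, 16 and 24 h and 1, 3 and 1 higher, with medians of -0.10, -0.02 and -0.02. Those lower were 5.88% at each time and those higher 2.94%, 8.82% and 2.94%, all below the shares of all measured genes just given. CRELD2, an ER stress gene, had 1485 in control cells and 1093, 753 and 875 after 8, 16 and 24 h. It had the largest difference of all the ER genes listed (-0.98 at 16 h). MANF, a secreted cofactor of BiP, stood at -0.32, -0.63 and -0.45, and GANAB, the glucosidase that trims new glycans, at 0.31, 0.66 and 0.14. HERPUD1, of the same list, differed from CRELD2 and MANF, at -0.08, 0.30 and 0.36. It was the 1 gene of the list counted as higher at 24 h, and both its probe sets were above the control at 16 and 24 h. Of 19 measured export genes, 2, 3 and 1 were lower and 0, 0 and 1 higher, with medians of -0.12, -0.14 and -0.06. The late shares lower (15.8% and 5.26%) and the 24 h share higher (5.26%) were of the same order as those of all measured genes. At 8 h, 2 of 19 were lower, against 6.15%, and none was higher at 8 or 16 h, against 5.67% and 11.4%. Most export genes were nevertheless below the control, with 16, 15 and 14 of 19 at 8, 16 and 24 h. Those shares were 84.21%, 78.95% and 73.68%, against 48.3%, 45.7% and 47.4% of all measured genes. Of the members, 41, 38 and 33 of 52 were below it, so a small drop was not particular to them. The COPII coat genes SEC24D and SEC23B stood at -0.62 and -0.40 at 8 h and at -0.03 and -0.41 at 24 h. LMAN1, a cargo receptor, stood at -0.22, -0.43 and -0.32, with 1 of its 3 probe sets above the control at 16 h.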

How the data were processed

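RNA of MM.1S cells was isolated with Trizol and labelled for Affymetrix arrays, as the labels' protocols state. The values deposited by the authors are intensities on a linear scale for 54675 probe sets. How probe sets were summarised and arrays normalized is not given in the sources used. Array medians differed by at most 0.0483 (log2), and the arrays were taken as comparable.

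Groups came from the sample labels, 1 array each. Of 42898 annotated probe sets, 41097 had 1 gene, and 1801 had several and were not used. The other 11777 of the 54675 probe sets were unnamed here. Of those with 1 gene, 41043 were matched to RefSeq by Entrez identifier. Intensities below the 25th percentile (48.4) were set to it, log2 was taken, and each gene took its probe set with the highest mean. Genes with a mean above the median of all probe sets (93.9) counted as measured. No member was at the floor. No test was possible, as each group had 1 array.

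The named genes were the 3 members of each step and the 3 genes of each further list with the largest difference, plus HSPA5, HSP90B1, SEC61A1, SYVN1, DERL3, XBP1, ATF6, ATF4, DDIT3, ERN1 and EIF2AK3, and others as the description required. The members and lists were chosen with earlier results of these data known. The procedure was tested on simulated data. Python 3.11.15, pandas 2.3.3 and numpy 2.4.6 were used. The alternatives tried were the floor, the probe set per gene, the filter, the scaling between arrays and the size that counts as a call.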

Additional observations from a re-analysis of the deposited data

Results flagged for a closer look

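ERN1 was lower than the control at 8 h (-0.3226, log2) and higher at 16 h (0.33) and 24 h (0.3607), each past the threshold of 0.322, so its direction differed between times. The difference between times was not tested, since each time had 1 array, and the 8 h value lies just past the threshold. With array medians set equal the 24 h value was 0.312, under the threshold. That setting moves all genes of an array alike, and it took the member median at 16 h from -0.1467 to -0.1795. The same move puts ERN1 under the threshold at 16 h as well, so neither late value passes it there. The 3 probe sets of ERN1 did not all take the same direction at 16 h, where they lay between -0.13 and 0.33.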

How the results depend on the processing

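The step medians are small, so their ranges over the floor, probe set, filter and scaling alternatives are given. The chaperone median lay between -0.314 and -0.254 at 8 h, -0.430 and -0.331 at 16 h and -0.265 and -0.145 at 24 h, and the ERAD median at 24 h between 0.0853 and 0.239. The sign of the median changed for ERAD at 16 h (-0.0159 to 0.0521), the Sec61 step at 24 h (-0.0945 to 0.0173), disulfide formation at 16 h (-0.117 to 0.0315) and oligosaccharyltransferase at 16 h (-0.0237 to 0.0195) and 24 h (-0.0787 to 0.0059), and for no other step median. With 1.5-fold as the size of a call, 0, 3 and 0 members were lower at 8, 16 and 24 h and 0 were higher at 24 h, by construction fewer. The median over probe sets gave 8 lower members at 8 h and 4 at 24 h, and leaving out _s_at and _x_at probe sets, which left 38 members, gave 4 lower at 24 h and 1 higher at 16 h. Setting array medians equal gave 7 lower at 8 h and 0 higher at 24 h, and quantile normalization gave 2 higher at 16 h. The cause was not tested for these last settings. Of the named genes' recomputed differences, 308 stayed within the SD between probe sets and 6 moved by more (SRPRB under a pair of settings, HSP90B1, ERO1A, CREB3L2 and LMAN1). ERO1A at 8 h, which was under the threshold, also changed sign, at -0.06 with the median over probe sets. No paired analysis was possible because each group had 1 array, and no replicate could be left out. The number of arrays limits the precision of every value.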
